A study of Mus musculus with 8 samples.

Results

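The genes described here are those of the liver sinusoidal and vascular endothelium, the cells that line the blood vessels of the liver. They were chosen by name, as 40 gene symbols that cover sinusoidal markers, general endothelial genes, transcription factors, angiocrine signals, the VEGF axis and the angiopoietin axis. Of these, 39 were found among the 19642 genes of the table, and all 39 passed the filter on low counts. Fcn3 was not among its rows and is not analysed here.

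Sinusoidal endothelial cells form a capillary wall with open pores and no organized basement membrane, and they clear waste molecules from portal blood through scavenger receptors such as the stabilins. They also secrete angiocrine signals. Wnt2, Wnt9b and Rspo3 keep the Wnt program of hepatocytes around the central vein active, while Bmp2 and Bmp6 set hepcidin production and thereby iron balance. VEGF made by hepatocytes holds the sinusoidal state, and the loss of pores together with the gain of a basement membrane and of markers such as Cd34 is called capillarization.

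RNA was sequenced from whole livers of 4 WT mice and 4 N-LKO mice on chow diet (CD), with 1 library per mouse. N-LKO mice lack Nus1, which encodes NgBR, a subunit of the cis-prenyltransferase that makes dolichol for protein glycosylation. The deletion comes from floxed NgBR alleles and albumin-Cre, which acts in hepatocytes and their precursors rather than in endothelial cells, and all mice were of the C57BL6 background. The study used male mice. Titles of the samples give 8 weeks of chow, as the study's text does for these livers, whereas their treatment entries give 16 weeks. Livers are numbered by the replicate numbers of the titles, which differ from the numbers in the library names. Nothing in the labels says that mice shared a litter or a day, and p-values measure the spread between the 4 livers of each group. Total counts ran from 14688404 to 18585412 per liver, with N-LKO 1 the deepest and N-LKO 3 the shallowest. The level of a gene is given as CPM, the counts scaled to a library of 1000000 counts after TMM normalization.

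Nus1 served as the check of the genotype. Its level was 82.0, 90.4, 90.5 and 89.7 CPM in WT livers 1 to 4 and 33.3, 36.2, 38.7 and 38.7 CPM in N-LKO livers 1 to 4. All N-LKO livers were below all WT livers, at 41.7% of the WT mean (log2 fold change -1.26, standard error 0.0748, by the quasi-likelihood test of edgeR, adjusted p = 3.06e-05 after Benjamini-Hochberg).

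Among the endothelial genes, 1 of 39 passed the test at an adjusted p under 0.05. It was Mrc2, which rose in N-LKO livers and whose cell of origin in these livers was not tested. With limma-voom it was again Mrc2 alone, and with DESeq2 it was Mrc2 and Nrp2. Over all 14214 genes tested, 1.04% passed, and 0.823% passed as higher. At an unadjusted p under 0.05, 7 of 39 endothelial genes (17.9%) stood out, beside 12.8% of all genes. Of these, 2 were higher (Mrc2 and Eng) and 5 were lower (Nrp2, Dnase1l3, Gpr182, Ehd3 and F8), beside 6.87% of all genes higher and 5.9% lower. The 4 WT and 4 N-LKO values did not overlap for 4 of 39 genes (10.3%), beside 7.52% of all genes. For these 4, Mrc2, Eng, Nrp2 and Gpr182, the exact two-sided permutation test over mice gave p = 0.0286. Groups of 4 without overlap always give this p, so it adds nothing to the lack of overlap. The median log2 fold change over the 39 genes was 0.021, with 21 above 0 and 18 below, and the median over all genes tested was -0.0033. Apart from Mrc2, log2 fold changes lay between -0.42 (Nrp2) and 0.41 (Angpt1). For 34 of 39 genes the 95% interval of the log2 fold change lay within 1 of 0 on either side, that is within a 2-fold change. The interval extended by 0.18 to 1.06 to either side of the estimate, with a median of 0.315, and was not adjusted for the number of genes. A call asks for more: Nrp2 at -0.42, with an interval of -0.66 to -0.19, was not called by edgeR. For most members a shift of about 0.315 on the log2 scale, or somewhat larger, would not have been called. In bulk RNA, fewer cells of a type and less RNA per cell cannot be told apart.

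**Figure D1:**
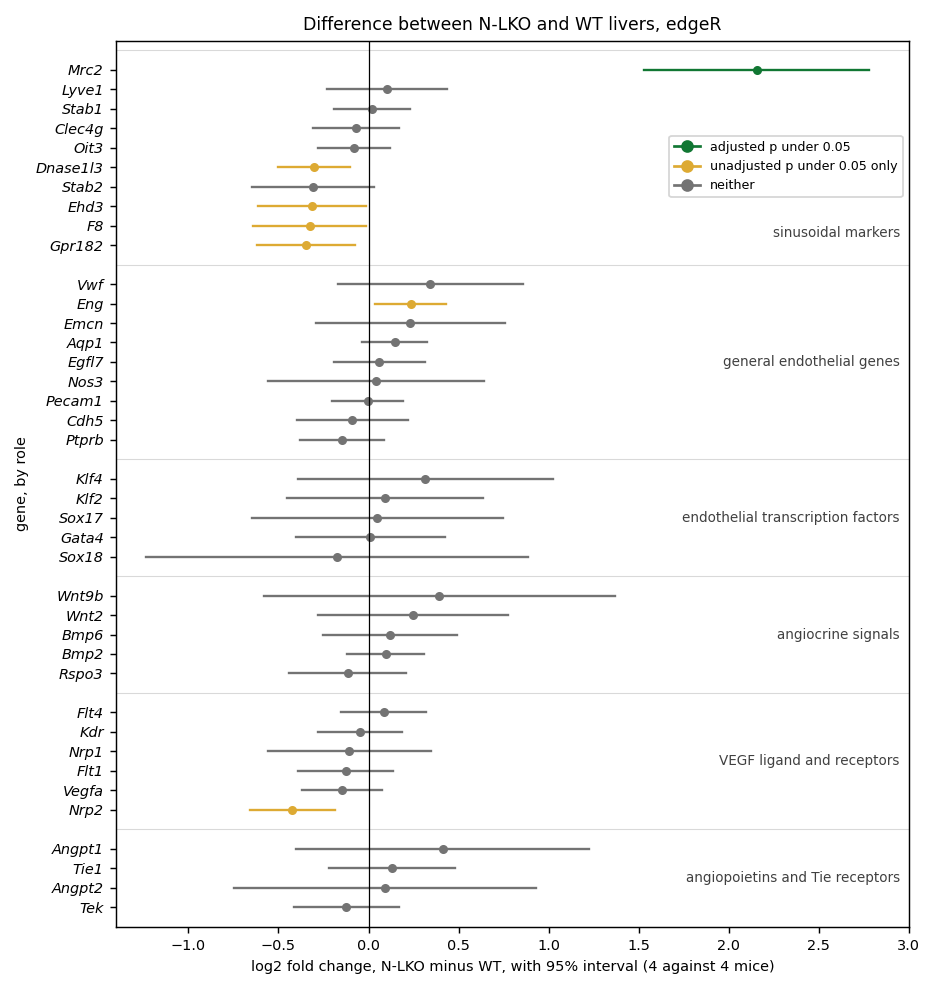
Log2 fold change of each endothelial gene, N-LKO minus WT, grouped by role. Points are the edgeR estimates from 4 against 4 livers and lines their 95% intervals, with green for an adjusted p under 0.05, yellow for an unadjusted p under 0.05 only and grey for neither. Mrc2 stands alone at 2.15, and the other 38 genes lie between -0.42 and 0.41.

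RNA of sinusoidal endothelium was checked on Stab2, Clec4g and Lyve1, which were detected at 14.98 CPM or more in all 8 whole livers. Stab2, a scavenger receptor that takes up hyaluronan, was at 40.5, 35.3, 29.0 and 41.4 CPM in WT livers and at 22.9, 37.6, 28.9 and 29.1 CPM in N-LKO livers. Clec4g, the C-type lectin LSECtin, was at 23.9, 19.9, 18.4 and 20.2 CPM in WT livers and at 17.1, 19.01, 21.1 and 21.5 CPM in N-LKO livers. Lyve1, a hyaluronan receptor shared with lymphatic endothelium, was at 20.04, 19.1, 18.8 and 20.1 CPM in WT livers and at 25.4, 14.98, 24.8 and 18.6 CPM in N-LKO livers. For each of these markers the groups overlapped, and the N-LKO livers spread more widely than the WT livers for Lyve1. The log2 fold change was -0.31 for Stab2 (95% interval -0.65 to 0.029, adjusted p = 0.438 from edgeR), -0.070 for Clec4g (-0.31 to 0.17, adjusted p = 0.844) and 0.10 for Lyve1 (-0.23 to 0.43, adjusted p = 0.834).

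Mrc2 encodes Endo180, an endocytic receptor that binds and internalizes collagen and is also known from fibroblasts. It was placed among the sinusoidal markers by name, and which cells carried its RNA in these livers was not tested. Every other sinusoidal marker was at 12.997 CPM or more in each WT liver. Mrc2 was far lower, at 0.267, 0.625, 0.444 and 0.662 CPM in WT livers and at 2.15, 2.57, 2.06 and 2.17 CPM in N-LKO livers. In counts these are 5, 10, 7 and 12 in WT livers and 38, 39, 31 and 32 in N-LKO livers. The groups were far apart, and the 4 N-LKO livers were close to each other. The log2 fold change was 2.15 (standard error 0.283, 95% interval 1.53 to 2.78, adjusted p = 0.00555 from edgeR), or 4.45-fold, and the exact two-sided permutation test gave p = 0.0286, the smallest it allows with 4 against 4 mice. With each mouse left out in turn, it stayed between 1.94 and 2.33 and was called in all 8 fits. The gene spans 105292643 to 105351139 of chromosome 11, plus strand (GRCm38), and no annotated exon of another gene overlaps its exons.

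Markers of some other cell types also differed between the groups. The 6 fibroblast markers summed to 144.3 to 199.9 CPM in WT livers and 217 to 307 CPM in N-LKO livers. All 6 were above 0 in log2 fold change and 2 were called, Col1a1 and Lum. Dcn made up most of this sum, with means of 143 CPM in WT and 193 CPM in N-LKO livers, and its groups overlapped. Cholangiocyte markers, of which 4 of 6 were tested, summed to 23.1 to 45.0 CPM and 52.5 to 133 CPM. All 4 were above 0, with Epcam and Spp1 called. Spp1 made up most of that sum, with means of 23.9 and 68.1 CPM. The 4 mesothelial markers summed to 4.92 to 7.28 CPM and 7.94 to 10.4 CPM, with Wt1 called. Log2 fold changes were above 0 for 3 of the 4, and Upk3b went the other way at -0.37. Stellate cell markers summed to 124 to 183 CPM and 98.9 to 139 CPM, and Colec10 and Ecm1 fell while the other 4 of 6 were not called. Fibroblast and cholangiocyte sums were both highest in N-LKO 3. Mrc2 differed little among the N-LKO livers (2.06 to 2.57 CPM) and was lowest in N-LKO 3, and this order was not tested. In the 8 fits that left out a mouse, Col1a1 was called in 1 and Epcam and Spp1 in 2 each, with adjusted p of up to 0.114, 0.0877 and 0.0964 from edgeR, while Lum was called in all 8. The part of these cell types in the result for Mrc2 was not tested. Log2 fold changes of the 6 hepatocyte markers ranged from -0.17 to 0.14 and those of the 6 Kupffer cell markers from -0.71 to -0.032.

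Of the 10 sinusoidal markers tested, 4 had a lower level at an unadjusted p under 0.05, beside 5.9% of all genes tested. None of the 4 passed the test. Gpr182, an atypical receptor that takes up chemokines, was at 15.3, 13.3, 12.997 and 14.3 CPM in WT livers and at 8.51, 11.7, 11.6 and 12.3 CPM in N-LKO livers. No N-LKO liver reached the lowest WT liver, and N-LKO 1 was the lowest by a clear gap (log2 fold change -0.35, standard error 0.123, adjusted p = 0.255 from edgeR). Dnase1l3, a secreted nuclease that degrades DNA in chromatin, was at 43.4, 34.6, 40.6 and 42.1 CPM in WT livers and at 30.4, 35.9, 32.7 and 31.4 CPM in N-LKO livers. Only N-LKO 2 reached into the WT range, above WT 2 (log2 fold change -0.30, standard error 0.0900, adjusted p = 0.176 from edgeR).

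Ehd3, a membrane-trafficking ATPase of the EHD family, was at 54.6, 58.8, 47.9 and 65.8 CPM in WT livers and at 36.5, 57.0, 43.9 and 45.8 CPM in N-LKO livers. F8, coagulation factor VIII, which sinusoidal endothelium supplies to blood, was at 29.7, 26.2, 25.2 and 29.9 CPM in WT livers and at 17.6, 29.3, 21.6 and 19.96 CPM in N-LKO livers. In both genes N-LKO 2 lay inside the WT range and the other 3 N-LKO livers lay below it. The log2 fold change was -0.31 for Ehd3 (standard error 0.136) and -0.33 for F8 (standard error 0.143), each with an adjusted p of 0.374 from edgeR. Left out in turn, each of WT 1, WT 4, N-LKO 1, N-LKO 3 and N-LKO 4 took both genes past an unadjusted p of 0.05, as WT 2 did for Ehd3. Over all 8 such fits the log2 fold changes ran from -0.43 to -0.22 for Ehd3 and from -0.49 to -0.23 for F8.

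Gpr182, Dnase1l3, Ehd3, F8 and Stab2 were at 78.8%, 81.2%, 80.6%, 79.8% and 80.9% of the WT mean in N-LKO livers. Stab1 and Oit3 were closer to WT. Stab1, the paralog of Stab2, was at 18.0 to 20.9 CPM in WT livers and 16.6 to 20.7 CPM in N-LKO livers (log2 fold change 0.021, 95% interval -0.19 to 0.23). Oit3, a zona pellucida domain protein of the sinusoid, was at 18.1 to 20.4 CPM and 16.1 to 20.5 CPM (-0.081, -0.28 to 0.12). Because both stabilins were read in the same library, their ratio was taken in each mouse. Counts for Stab2 over those for Stab1 were 1.93, 1.94, 1.596 and 2.30 in WT livers and 1.38, 1.82, 1.42 and 1.53 in N-LKO livers. N-LKO 2 alone was above the lowest WT liver, and this ratio was chosen after the values were seen and was not tested.

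Summed over the 10 sinusoidal markers, the level was 269, 244, 231 and 272 CPM in WT livers and 193, 249, 225 and 218 CPM in N-LKO livers. The groups overlapped through N-LKO 2, and the median log2 fold change of the 10 genes was -0.19, with 7 below 0. N-LKO 1 had the lowest value of its group for 8 of these 10 genes and for 23 of all 39, while N-LKO 2 had the highest for 24 of 39. Without N-LKO 1 the median of the sinusoidal markers was -0.11, and without N-LKO 2 it was -0.24. With at least 10 counts in every mouse, which leaves out Mrc2, it was -0.30.

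**Figure D2:**
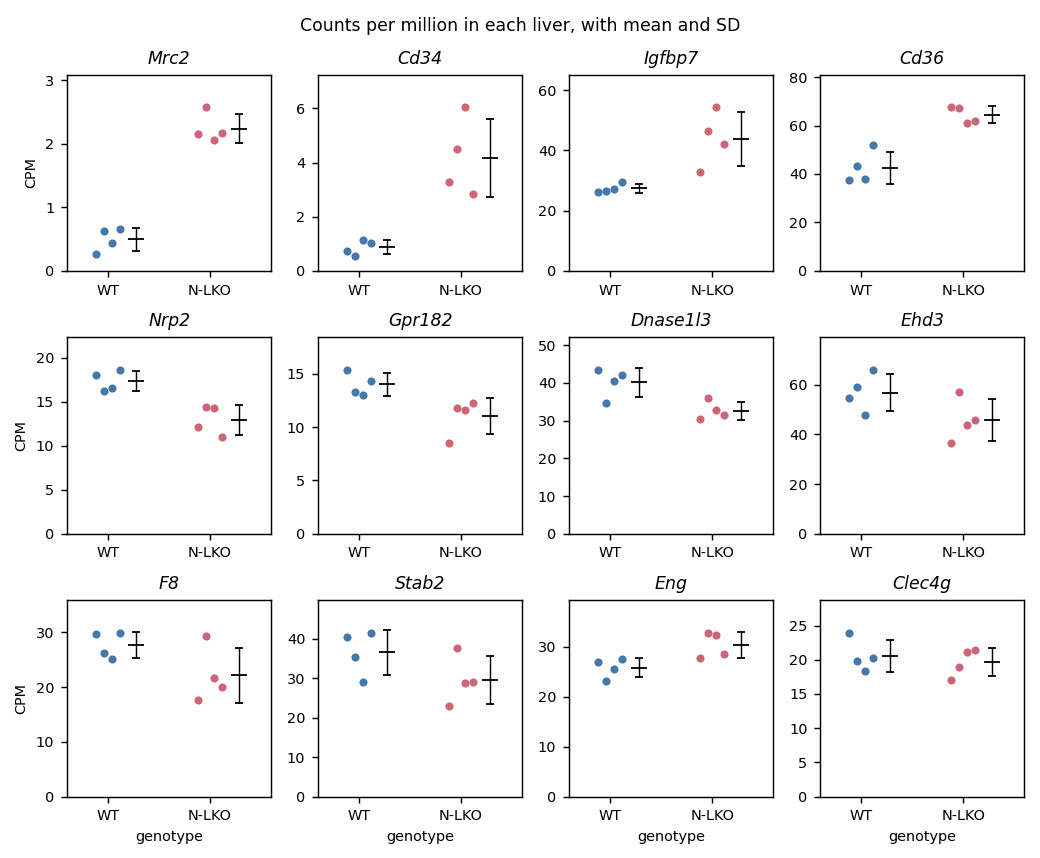
Level in CPM of 12 genes in each liver, with WT in blue and N-LKO in red, 1 point per mouse, and the mean with its SD in black. Mrc2, Cd34, Igfbp7 and Cd36 show no overlap between the groups and are higher in N-LKO livers, Nrp2 and Gpr182 show no overlap and are lower, and Stab2, Ehd3, F8, Dnase1l3 and Clec4g overlap.

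Promoter sequence was available for 22 of the 39 genes in the RefSeq table of GRCm38.p6, and the 250 bases before the start were searched on both strands for 4 short motifs. GGAAG, the core bound by ETS factors such as Erg and Fli1, was present in 16 of 22 endothelial promoters (72.7%), beside 63.6% of the 27025 promoters of all genes. CACCC, the box bound by KLF factors such as Klf2 and Klf4, was present in 13 of 22 (59.1%), beside 51.3%. GATAA, the GATA motif, was present in 2 of 22 (9.1%), beside 23.0%, and ACAAT, a short form of the SOX motif, in 4 of 22 (18.2%), beside 28.3%. These are matches of letters and no measure of binding. The 250 bases can hold annotated exon, as all 250 do for Ehd3 and F8 and 83 do for Stab2.

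The stretches before 3 genes are shown: Clec4g, a marker whose log2 fold change was near 0, Eng, the member besides Mrc2 with a higher level at an unadjusted p under 0.05, and Nrp2, the member with the lowest log2 fold change. Stab2, Ehd3 and F8 were also considered, as a marker or for an unadjusted p under 0.05, and were left out for their exon bases. Each stretch shown is read 5′ to 3′ along the gene, and capitals mark GGAAG and CACCC on either strand. Clec4g is given on the minus strand at chr8:3720652-3720901, Eng on the plus strand at chr2:32646345-32646594, and Nrp2 on the plus strand at chr1:62703067-62703284, which leaves out 32 bases annotated as exon.
Clec4g: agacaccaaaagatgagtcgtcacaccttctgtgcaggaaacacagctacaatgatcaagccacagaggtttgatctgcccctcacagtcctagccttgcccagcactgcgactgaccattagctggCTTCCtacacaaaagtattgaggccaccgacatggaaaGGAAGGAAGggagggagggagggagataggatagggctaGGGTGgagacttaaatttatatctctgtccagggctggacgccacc
Eng: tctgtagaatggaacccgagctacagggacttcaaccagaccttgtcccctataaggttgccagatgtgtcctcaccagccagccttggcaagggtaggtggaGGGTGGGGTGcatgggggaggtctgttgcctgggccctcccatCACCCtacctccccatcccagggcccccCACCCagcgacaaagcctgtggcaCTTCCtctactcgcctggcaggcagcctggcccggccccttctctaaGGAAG
Nrp2: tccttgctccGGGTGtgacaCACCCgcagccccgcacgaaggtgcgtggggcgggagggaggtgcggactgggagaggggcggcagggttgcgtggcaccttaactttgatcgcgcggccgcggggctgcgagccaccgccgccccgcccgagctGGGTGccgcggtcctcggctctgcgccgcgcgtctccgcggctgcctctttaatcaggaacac
Clec4g held 3 GGAAG and 1 CACCC, Eng held 2 and 4, and Nrp2 held 0 and 3. The ETS factors themselves were measured. Erg had a log2 fold change of 0.11 (95% interval -0.24 to 0.47) and Fli1 of -0.32 (-0.76 to 0.12), neither called.

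Of the 9 general endothelial genes, 0 passed the test by edgeR and by DESeq2, and 1 had an unadjusted p under 0.05. Eng, the co-receptor endoglin that binds BMP9 and TGF-beta, was at 27.0, 23.1, 25.6 and 27.6 CPM in WT livers and at 27.8, 32.8, 32.4 and 28.5 CPM in N-LKO livers. The groups did not overlap, by a narrow margin between WT 4 and N-LKO 1 (log2 fold change 0.23, standard error 0.0891, adjusted p = 0.294 from edgeR). Exons of Fpgs on the other strand overlap those of Eng, and whether the counting used strand is not given in the sources used here. Exons of another gene on the other strand overlap those of 11 of the 39 members in all, among them Gpr182, Stab1, Stab2, Clec4g and Bmp6, while Mrc2, Nrp2, Dnase1l3, Ehd3 and F8 have no such overlap.

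Junction and lineage genes overlapped between the groups. Pecam1 (CD31) was at 17.4 to 21.9 CPM in WT livers and 18.9 to 20.7 CPM in N-LKO livers (log2 fold change -0.0058, 95% interval -0.20 to 0.19). Cdh5, the VE-cadherin of endothelial junctions, was at 19.1 to 23.4 CPM and 15.03 to 24.7 CPM (-0.090, -0.40 to 0.22). Ptprb, the phosphatase VE-PTP that restrains Tie2, was at 93.7 to 114 CPM and 81.3 to 110 CPM (-0.15, -0.38 to 0.085).

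Aqp1, a water channel that bile duct cells also express, was at 43.2 to 45.3 CPM in WT livers and 42.1 to 52.5 CPM in N-LKO livers (0.14, -0.035 to 0.32). Egfl7, an endothelial matrix protein and host gene of Mir126a, had a log2 fold change of 0.061 (-0.19 to 0.31), and Nos3, the endothelial nitric oxide synthase, of 0.041 (-0.56 to 0.64). The next genes mark larger or continuous vessels. Vwf, the von Willebrand factor, was at 3.26 to 4.01 CPM in WT livers and 3.23 to 6.27 CPM in N-LKO livers (0.34, -0.17 to 0.86), and Emcn, endomucin, at 2.37 to 3.36 CPM and 1.87 to 4.03 CPM (0.23, -0.29 to 0.76). Summed over the 9 genes, the level was 221 to 242 CPM in WT livers and 198 to 257 CPM in N-LKO livers, with the lowest in N-LKO 1 and the highest in N-LKO 2. Their median log2 fold change was 0.061, with a range of 0.023 (without WT 4) to 0.14 (without N-LKO 1), and 0.029 with library totals alone.

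The 5 transcription factors were not called, and 0 had an unadjusted p under 0.05. Gata4, the factor that maintains sinusoidal rather than continuous capillaries and that other liver cells also express, was at 9.56 to 17.4 CPM in WT livers and 10.5 to 14.5 CPM in N-LKO livers (log2 fold change 0.0086, 95% interval -0.40 to 0.42). The flow-responsive factors Klf2 and Klf4 had log2 fold changes of 0.092 (-0.45 to 0.64) and 0.32 (-0.39 to 1.03), and WT 2 held the highest value of both, 11.4 and 4.75 CPM. Sox17 and Sox18, which act in arterial and early endothelial fate, were near 1 CPM, with log2 fold changes of 0.050 (-0.65 to 0.75) and -0.18 (-1.24 to 0.88). The interval of Sox18 was the widest of the 39 genes, and in WT 3 it reached 3.17 CPM while the other WT livers were at 0.563 to 1.28 CPM.

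Of the 5 angiocrine signals none was called by edgeR or DESeq2, 0 had an unadjusted p under 0.05, and the groups overlapped for each. Wnt2, made across the central part of the lobule, was at 2.14, 2.69, 1.78 and 1.38 CPM in WT livers and at 2.32, 2.97, 1.92 and 2.24 CPM in N-LKO livers (log2 fold change 0.25, 95% interval -0.28 to 0.78). Wnt9b, made around the central vein, was at 0.641, 0.688, 0.444 and 0.386 CPM in WT livers and at 0.340, 0.924, 0.398 and 1.22 CPM in N-LKO livers (0.39, -0.58 to 1.37). With 6 to 18 counts per liver, Wnt9b was thinly measured, and its interval reached beyond a 2-fold rise.

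Rspo3, which amplifies Wnt signals at the same site, was at 8.87, 7.07, 8.37 and 9.77 CPM in WT livers and at 7.94, 9.77, 6.77 and 6.99 CPM in N-LKO livers (log2 fold change -0.12, 95% interval -0.44 to 0.21). Bmp2 was at 25.5, 27.4, 23.7 and 28.8 CPM in WT livers and at 27.2, 32.2, 25.01 and 28.2 CPM in N-LKO livers (0.095, -0.12 to 0.31). Bmp6 was at 3.90, 3.00, 3.11 and 3.64 CPM in WT livers and at 2.89, 3.96, 3.91 and 4.14 CPM in N-LKO livers (0.12, -0.25 to 0.49). Both intervals lie within a 2-fold change in either direction.

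The lists of genes that answer these signals, mainly in hepatocytes, were read beside them. Both lists also hold receptors or co-receptors, so counts over a list are not of responding genes alone. Of 16 genes of the BMP and hepcidin response, 0 passed the edgeR test and 3 had an unadjusted p under 0.05, all higher. Of all genes tested, 12.8% had an unadjusted p under 0.05, and 6.87% were higher at it. The 3 genes of the list were few, and the list was not tested as a set. These genes were Bambi at 0.71 (adjusted p = 0.123), Acvr1 at 0.33 (adjusted p = 0.299) and Smad6 at 0.59 (adjusted p = 0.343), which encode a decoy receptor, a type I receptor and an inhibitory SMAD. Hamp, which encodes hepcidin, was at 201 CPM in the mean of WT livers and 241 CPM in N-LKO livers (log2 fold change 0.27, 95% interval -0.54 to 1.07), and Id1 had a log2 fold change of -0.071 (-0.75 to 0.61). Of 16 genes tested from the Wnt response list, 0 passed the edgeR test, 8 were above 0 and 8 below. The receptors Lgr4, Lrp5 and Lrp6 and the Wnt carrier Wls were among them. Glul, the glutamine synthetase of hepatocytes next to the central vein, was at 692, 835, 817 and 798 CPM in WT livers and at 1153, 896, 998 and 1315 CPM in N-LKO livers. Its groups did not overlap (log2 fold change 0.47, 95% interval 0.20 to 0.75, adjusted p = 0.124 from edgeR), and DESeq2 called it with an adjusted p of 0.0138. Axin2, a feedback inhibitor of Wnt signaling, had a log2 fold change of 0.31 (-0.12 to 0.74), and Lgr5, a receptor for R-spondins, of -0.54 (-1.27 to 0.19).

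The VEGF axis had 1 ligand and 5 receptors or co-receptors on the list, of which 0 passed the edgeR test and 5 of 6 had a log2 fold change below 0. Vegfa, made mainly by hepatocytes in liver, was at 93.3, 89.2, 72.5 and 79.7 CPM in WT livers and at 83.0, 66.1, 81.2 and 72.1 CPM in N-LKO livers (log2 fold change -0.15, 95% interval -0.37 to 0.077). Kdr, which encodes the main signaling receptor VEGFR2, was at 58.1, 44.7, 48.7 and 53.7 CPM in WT livers and at 43.6, 56.0, 52.8 and 46.4 CPM in N-LKO livers (-0.046, -0.28 to 0.19). Flt1, the decoy-like receptor VEGFR1, was at 16.5, 15.3, 14.5 and 15.3 CPM in WT livers and at 11.7, 17.1, 12.7 and 15.01 CPM in N-LKO livers (-0.13, -0.39 to 0.14). None of these 3 separated the groups.

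Nrp2, a co-receptor for VEGF-C and class 3 semaphorins, had the smallest p of the members after Mrc2. The gene spans 62703285 to 62818695 of chromosome 1, plus strand. It was at 18.1, 16.2, 16.6 and 18.6 CPM in WT livers and at 12.1, 14.5, 14.3 and 11 CPM in N-LKO livers. The highest N-LKO liver was under the lowest WT liver, and the N-LKO mean was at 74.7% of the WT mean (log2 fold change -0.42, standard error 0.107, 95% interval -0.66 to -0.19). Its adjusted p was 0.112 from edgeR and 0.0407 from DESeq2, so the call depends on the tool. The related co-receptor Nrp1 was at 28.9 to 57.1 CPM in WT livers and 33.9 to 51.3 CPM in N-LKO livers (-0.11, -0.56 to 0.35), a much wider spread. Flt4, which encodes VEGFR3, was at 16.5 to 19.7 CPM and 15.8 to 21.2 CPM (0.084, -0.15 to 0.32). Among 13 other VEGF and Notch genes tested, 0 passed the edgeR test and 1 had an unadjusted p under 0.05. This was Plxnd1, a plexin that receives class 3 semaphorins, at 12.4 to 13.3 CPM in WT livers and 7.82 to 11.1 CPM in N-LKO livers (log2 fold change -0.43, adjusted p = 0.122). Notch4 and Esm1, an endothelial Notch receptor and the secreted proteoglycan endocan, had log2 fold changes of -0.56 (adjusted p = 0.391) and 0.72 (adjusted p = 0.494).

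In the angiopoietin and Tie axis 0 of 4 genes passed the edgeR test and 0 had an unadjusted p under 0.05. Angpt1, the agonist of Tie2, was at 0.481, 0.813, 1.33 and 0.993 CPM in WT livers and at 1.25, 1.06, 1.79 and 0.679 CPM in N-LKO livers (log2 fold change 0.41, 95% interval -0.40 to 1.23). Angpt2, its context-dependent antagonist, was at 0.748, 0.313, 0.634 and 0.552 CPM in WT livers and at 0.851, 0.396, 0.398 and 0.747 CPM in N-LKO livers (0.092, -0.75 to 0.93). Angpt2 had 5 to 15 counts per liver, and these intervals reach close to a 2-fold change or beyond it. Tek, the receptor Tie2, was at 13.6, 14.1, 12.4 and 13.6 CPM in WT livers and at 9.81, 15.5, 11.3 and 12.8 CPM in N-LKO livers (-0.12, -0.42 to 0.17). Tie1, its partner receptor, was at 4.38 to 6.88 CPM and 5.39 to 6.38 CPM (0.13, -0.22 to 0.48).

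**Figure D3:**
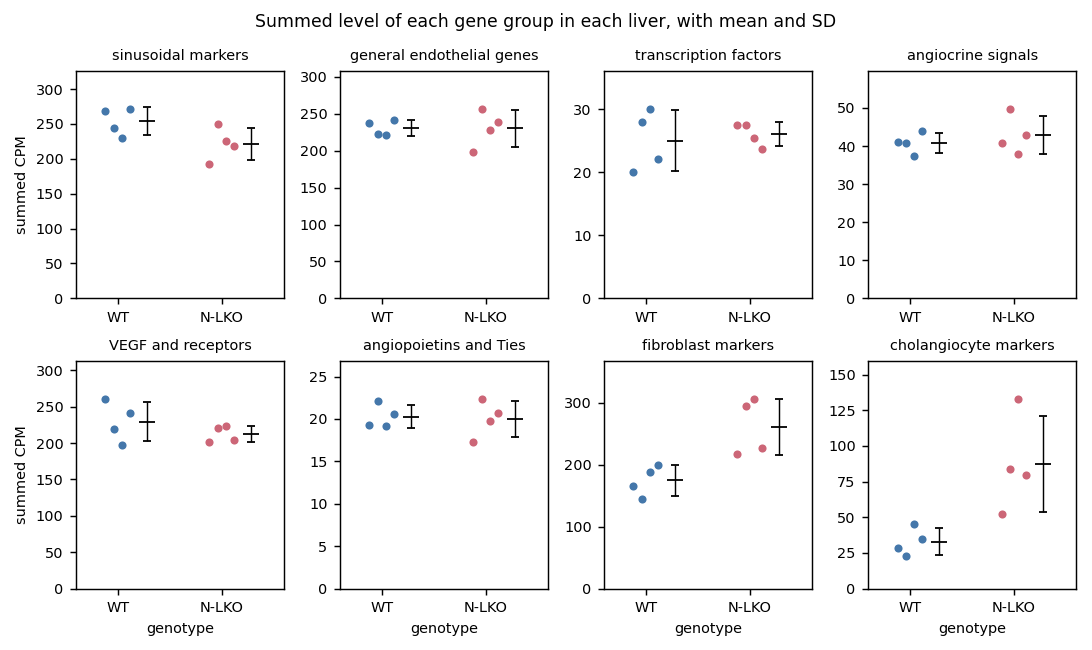
Summed CPM of each role group and of the fibroblast and cholangiocyte markers in each liver, with WT in blue, N-LKO in red, and the mean with its SD in black. The 6 endothelial groups overlap between genotypes, whereas fibroblast markers (144.3 to 199.9 against 217 to 307 CPM) and cholangiocyte markers (23.1 to 45.0 against 52.5 to 133 CPM) do not. Dcn made up most of the fibroblast sum and Spp1 most of the cholangiocyte sum.

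Beyond the 39 members, 95 genes of 9 related lists were tested, of which 3 passed the edgeR test and 13 (13.7%) had an unadjusted p under 0.05, beside 1.04% and 12.8% of all genes tested. DESeq2 called 5 of them and limma-voom 2. The list of capillarization genes held 2 of the 3. Cd34, a sialomucin of continuous capillary endothelium that fibroblasts and progenitor cells also carry, was at 0.748, 0.563, 1.14 and 1.05 CPM in WT livers and at 3.29, 4.49, 6.04 and 2.85 CPM in N-LKO livers. The gene spans 194938819 to 194961279 of chromosome 1, plus strand. It rose 4.72-fold, with no overlap between groups (log2 fold change 2.24, standard error 0.303, adjusted p = 0.0066 from edgeR). An antisense gene overlaps its exons, and reads of the pair could not be separated if strand was not used.

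Igfbp7, a secreted protein of endothelial and mesenchymal cells, was at 26.1, 26.7, 27.3 and 29.6 CPM in WT livers and at 32.9, 46.4, 54.3 and 42.1 CPM in N-LKO livers. It rose to 160% of the WT mean (log2 fold change 0.68, standard error 0.133, adjusted p = 0.0393 from edgeR), and was called in 1 of 8 fits that left out a mouse, with an adjusted p of up to 0.103. Its exons overlap those of Polr2b on the other strand. Cd34 and Igfbp7 were both highest in N-LKO 3, the liver with the highest summed fibroblast and cholangiocyte markers given above. Mrc2 was at its lowest N-LKO level in that same liver. The part of those cells was not tested for any of the 3 genes.

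The other capillarization genes were not called. The basement membrane genes Col4a1, Col4a2 and Nid1 had log2 fold changes of 0.34, 0.43 and 0.36, each at an unadjusted p under 0.05, with adjusted p of 0.260, 0.144 and 0.317 from edgeR. Plvap, which forms the diaphragms of fenestrae and caveolae and marks capillarized sinusoids, was at 11.6 to 15.5 CPM in WT livers and 8.76 to 10.6 CPM in N-LKO livers (log2 fold change -0.51, adjusted p = 0.113 from edgeR), and DESeq2 called it. The median of the 10 genes tested was 0.35, with 8 above 0 and 2 below, beside a median of -0.0033 over all genes tested. At an unadjusted p under 0.05 stood 6 of the 10, 5 higher and 1 lower, beside 12.8% of all genes tested. The list was chosen with earlier results of these data known and was not tested as a set.

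Of 12 other sinusoidal genes tested, Cd36 was called. This fatty acid transporter, which hepatocytes and macrophages also express, was at 37.3 to 51.8 CPM in WT livers and 61.2 to 67.5 CPM in N-LKO livers (log2 fold change 0.60, adjusted p = 0.0230 from edgeR), and 2 of 8 fits without 1 mouse kept the call. Mrc1, the mannose receptor of sinusoidal cells and macrophages, and Plpp3, a lipid phosphatase, followed with -0.22 (adjusted p = 0.434) and -0.17 (adjusted p = 0.441). The remaining lists held no gene called by edgeR. Among 15 other pan-endothelial genes the smallest p belonged to Cd93 at 0.53 (adjusted p = 0.179), Ramp2 at 0.39 (adjusted p = 0.400) and Calcrl at -0.23 (adjusted p = 0.549), and 10 of the 15 were below 0. Among 6 pericentral endothelial genes it belonged to Fabp4 at 0.26, Cdh13 at 0.45 and Thbd at 0.49, with 5 of 6 above 0 and 0 of 6 at an unadjusted p under 0.05. Among 7 periportal and arterial endothelial genes it belonged to Msr1 at -0.36, Ltbp4 at 0.27 and Dll4 at -0.24, with 0 of 7 at an unadjusted p under 0.05. Of the 4 adhesion molecules tested, Vcam1 was at 0.25 (95% interval -0.11 to 0.60), Selplg at 0.22, Selp at 0.18 and Icam1 at 0.044. None had an unadjusted p under 0.05.

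Levels of different genes were compared per length, as CPM per kb of annotated exon. Vegfa and Aqp1 led with 19.5 ± 2.19 and 16.9 ± 0.365 CPM per kb (SD, n = 4) in WT livers, and their ranges overlapped. Ehd3 followed with 8.66 ± 1.15, then Clec4g with 8.37 ± 0.959 and Ptprb with 7.92 ± 0.660 CPM per kb (SD, n = 4). At the low end stood Angpt2 with 0.152 ± 0.04999, Wnt9b with 0.119 ± 0.0326 and Mrc2 with 0.0749 ± 0.0273 CPM per kb (SD, n = 4). For 5 of the 38 pairs of neighbours in this order the WT ranges did not overlap, so most neighbours were not separated beyond their spread. In N-LKO livers 35 of 39 genes kept a place within 3 of their WT place. Mrc2 moved most, by 6 places, from rank 39 to rank 33 of 39, at 0.336 ± 0.0343 CPM per kb (SD, n = 4). The exon length includes all annotated isoforms, so that a level per kb is lower for genes with long alternative exons.

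**Figure D4:**
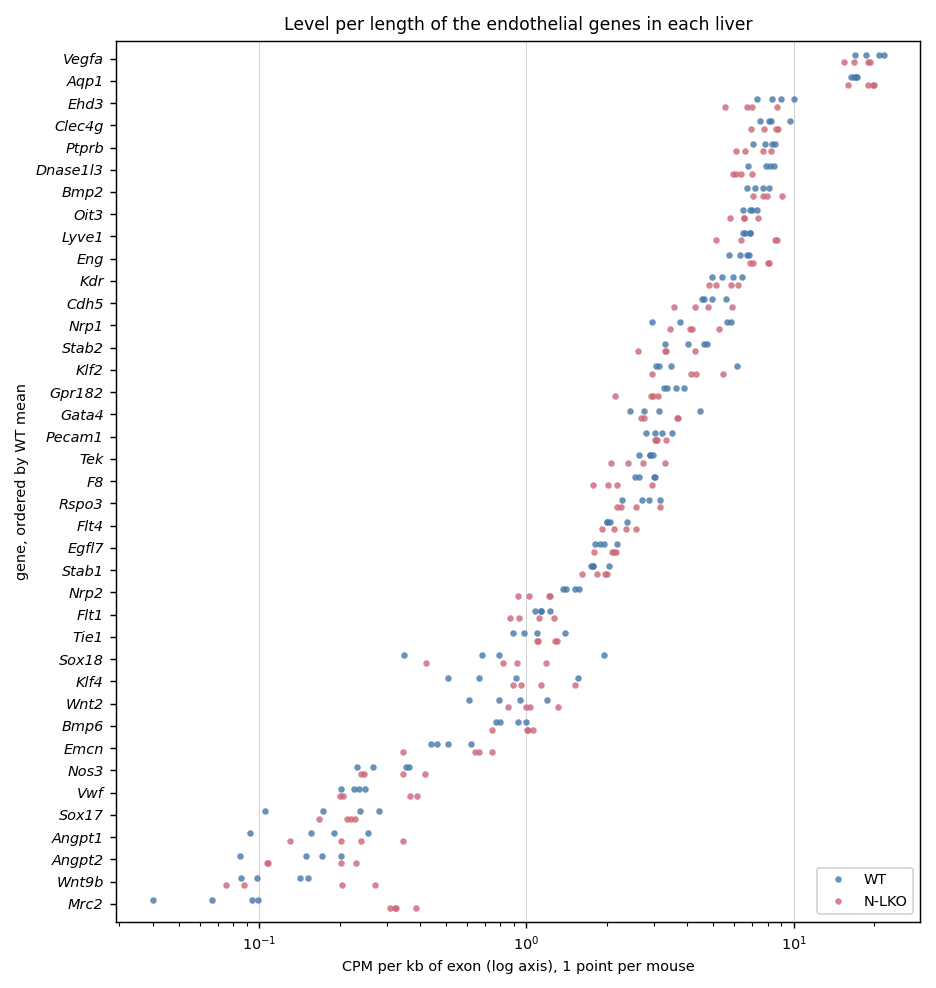
Level per length of the 39 endothelial genes, in CPM per kb of exon on a log axis, with WT livers in blue above and N-LKO livers in red below for each gene. Genes are ordered by their WT mean, from Vegfa (19.5) to Mrc2 (0.0749). Blue and red points intermix for most genes, and Mrc2 is the gene whose red points all lie far to the right.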

How the data were processed

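Liver RNA of 4 WT and 4 N-LKO mice was measured after rRNA removal, and samples were assigned to WT or N-LKO by their genotype labels. The authors deposited expected counts per gene, estimates of which 52.2% of genes had decimals in some liver, with no scaling for depth. The study's methods name trimming, TopHat2 and cuffdiff, whereas the submitters' processing notes name STAR, Partek and mm9. The program that counted and its annotation are not given in the sources used here. Deposited gene starts equalled those of GENCODE M21 on GRCm38 for 99.5% of 19194 genes with a matching symbol, so GRCm38 coordinates are given.

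Counts were rounded, filtered with edgeR's filterByExpr (minimum count 10, minimum total 15), which left 14214 genes, and scaled by TMM. The fit used the quasi-likelihood functions of edgeR 4.0.16 under R 4.3.3, and its design held genotype alone. Genes were called at a Benjamini-Hochberg adjusted p under 0.05. CPM are the rounded counts scaled to a TMM-normalized library of 1000000 counts, and log2 CPM used a prior count of 2. For members whose groups did not overlap the two-sided exact permutation test is given, whose smallest p is 0.0286. Such groups always reach this p. The scripts were tested on simulated data. No 2 libraries of a group agreed within sampling noise (chi-square per degree of freedom 10.7 to 43.6).

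The members and the lists were chosen with earlier results of these data known. All members were accounted for, with values in every mouse for the 3 markers, members at an unadjusted p under 0.05, the 5 angiocrine signals, Vegfa, Kdr, Flt1, Angpt1, Angpt2 and Tek. From each list, called genes or up to 3 with the smallest p were named, and Hamp, Id1, Axin2 and Glul always. Values per mouse of other list genes were added after seeing the data. So were Col4a1, Col4a2, Nid1, Plvap, Mrc1, Plpp3, Erg, Fli1, Dcn, Upk3b, Icam1, Prox1, Pdpn and Mmrn1. The 10 lists of cell type markers were read as sums. Of these, smooth muscle, lymphatic, lymphocyte and erythroid markers overlapped between genotypes in their sums. The lymphatic sum was almost all Prox1, at 200 and 214 CPM in the WT and N-LKO means. Pdpn was at 0.623 and 0.725 CPM and Mmrn1 at 0.352 and 0.690 CPM, so the sum hardly reads these genes. Alternatives were RLE scaling (as in DESeq2), no filter, a filter of at least 10 counts per mouse, unscaled library totals, a replicate block, the library number as a block (chosen after seeing the data), DESeq2 1.42.0, limma-voom (limma 3.58.1) and each mouse left out. A planned description of protein sequences was not made.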

Additional observations from a re-analysis of the deposited data

Results flagged for a closer look

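In groups of 4 livers, a lowest or highest value was marked when its gap to the nearest other liver, as a share of the group's range, was above Dixon's critical value for groups of that size. Of 82 groups checked, 5 were marked, and chance alone marks about 1 in 20, or 4.1 here. In WT 1, Nus1 was at 6.36 log2 CPM, below the other WT livers at 6.49 to 6.50. The same liver was the highest of its group for Stab1, at 4.40 log2 CPM beside 4.18 to 4.20, and for Flt4, at 4.31 log2 CPM beside 4.06 to 4.09. N-LKO 1 was the lowest of its group for Gpr182, at 3.11 log2 CPM beside 3.55 to 3.63, and for Bmp6, at 1.59 log2 CPM beside 2.01 to 2.09.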

How the results depend on the processing

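Mrc2 was called under each of the 7 alternative settings with all mice in which it was tested and in all 8 fits without 1 mouse. It could not be tested with at least 10 counts in every mouse, which left 33 endothelial genes, 98 called genes, 19 of them lower, 0 called endothelial genes and 1 called list gene. DESeq2 called 371 genes, 248 higher and 123 lower, with 2 endothelial and 5 list genes. The median log2 fold change of all endothelial genes was -0.0094 with library totals alone and -0.00657 with at least 10 counts in every mouse. With library totals alone, Stab1 was at -0.0094 and Gata4 at -0.028, both turned in sign, while 37 of 39 members kept their direction under all settings with all mice.

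With each mouse left out in turn, genes called ran from 71 (without WT 4) to 173 (without N-LKO 2), those higher from 60 to 124 and those lower from 11 to 49. Endothelial genes called stayed at 1, those at an unadjusted p under 0.05 ran from 4 (without N-LKO 3) to 8, list genes called from 1 to 2, and the median from -0.056 (without WT 2) to 0.048 (without WT 3). The 13 members that changed sign were Stab1 (-0.015 to 0.083), Clec4g (-0.12 to 0.010), Lyve1 (-0.0049 to 0.24), Pecam1 (-0.056 to 0.053), Cdh5 (-0.22 to 0.017), Nos3 (-0.13 to 0.15), Gata4 (-0.10 to 0.21), Klf2 (-0.052 to 0.38), Sox17 (-0.15 to 0.27), Sox18 (-0.44 to 0.43), Kdr (-0.11 to 0.019), Nrp1 (-0.27 to 0.036) and Angpt2 (-0.14 to 0.27), as did Id1 (-0.42 to 0.13). None of these had a call to lose, and the cause was not tested.

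Residuals of mice with the same replicate number correlated at -0.0853 to 0.0625, and of those with the same library number at -0.0092 to 0.166, so neither numbering was taken to pair the mice. A fit with the replicate block called 1 endothelial gene, Mrc2, had 6 at an unadjusted p under 0.05, and called 2 list genes, Cd34 and Cd36. With the library number as the replicate block, chosen after seeing the data, 113 genes, Mrc2 among the members, and the list genes Cd34 and Cd36 were called, and 8 members were at an unadjusted p under 0.05. Depth limits what can be said of Wnt9b, Angpt1, Angpt2, Sox17 and Mrc2 in WT livers, which had few counts.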
